A study of Homo sapiens with 4 samples.

Results

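At 560 human promoters, the stretch of DNA called as enriched for the histone variant H3.3 was at least 2 times as wide 3 h after UV-C as without UV. H3.3 was immunoprecipitated from MRC5_VA cells, a fetal lung fibroblast line immortalised with SV40 (the labels give the line as MRC5 and title the samples MRC5_WT). Both conditions share these wild-type cells, and the labels name no other agent in either. The cells were left without UV or received 10 J/m2 UV-C and were collected 3 h later. DNA from 3 replicates was pooled before sequencing, which left 1 H3.3 library per condition, so no difference between the conditions has a replicate check and none was tested. The authors called peaks on hg38 in each library, and an interval (the span from the start to the end of a peak) that carries several summits counts once here. A member is an interval of the UV library within 1 kb of the 5′ end of a protein-coding gene (GENCODE 44, chromosomes 1 to 22 and X) that overlaps exactly 1 interval of the library without UV, which in turn overlaps no other UV interval, and that is at least 2 times as wide. The members were thus chosen by the ratio of the widths, and the widths, covered positions and summits given below describe this choice and test nothing. Of 77173 distinct UV intervals 9966 lay at promoters, and 6112 of these had such a 1-to-1 partner. Another 2939 overlapped no interval without UV, and 915 overlapped one without a 1-to-1 match. The lists carry no read numbers, so the depth of the libraries is unknown, and their enrichment values were used only within a library.

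H3.3 is the replacement form of histone H3. Unlike the canonical form it is deposited throughout the cell cycle, by the HIRA complex at active promoters and genes and by ATRX and DAXX in heterochromatin. At an active promoter, nucleosomes flank a stretch of accessible DNA around the start of transcription, and nucleosomes that carry H3.3 turn over quickly there. HIRA also deposits H3.3 in chromatin damaged by UV-C, which forms pyrimidine dimers that stall RNA polymerase II and are removed by nucleotide excision repair. Among marker genes of cell types, 6 of 13 fibroblast markers had an H3.3 interval at their 5′ end without UV and 8 of 13 after UV, among them *COL1A1*, *COL1A2*, *VIM* and *PDGFRB* in both libraries. None of 5 immune, 3 endothelial and 4 hepatocyte or neuron markers had one in either library, whereas 3 of 6 epithelial markers, *KRT8*, *KRT18* and *SFTPC*, had one in both. Over all protein-coding genes, 7419 of 19962 had one without UV and 8965 after UV. These few markers therefore do not separate fibroblast from epithelial cells.

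The bases that an interval gained often held the start of the gene itself. The 150 bases just upstream of the 5′ end are shown for 6 members, chosen after their values were seen because the start site lay outside the interval without UV and inside the interval after UV. They are written 5′ to 3′ in the direction of transcription from hg38, none overlaps an annotated exon of a protein-coding gene, capitals mark bases covered only after UV, and lower case marks bases covered in both libraries. They belong to *CDK9* (chr9:127785529-127785678, plus strand), the kinase of the elongation factor P-TEFb, *EGR1* (chr5:138465329-138465478, plus strand), an immediate early transcription factor, *ID1* (chr20:31605133-31605282, plus strand), an inhibitor of helix-loop-helix factors, *GAS6* (chr13:113864077-113864226, minus strand), the ligand of the receptor kinase AXL, *KIF17* (chr1:20718018-20718167, minus strand), a kinesin motor, and *POLD1* (chr19:50384054-50384203, plus strand), the catalytic subunit of DNA polymerase delta.
CDK9: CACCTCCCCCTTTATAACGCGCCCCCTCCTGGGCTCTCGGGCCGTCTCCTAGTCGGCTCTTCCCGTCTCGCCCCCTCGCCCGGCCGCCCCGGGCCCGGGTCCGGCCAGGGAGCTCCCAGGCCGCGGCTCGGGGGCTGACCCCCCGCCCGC
EGR1: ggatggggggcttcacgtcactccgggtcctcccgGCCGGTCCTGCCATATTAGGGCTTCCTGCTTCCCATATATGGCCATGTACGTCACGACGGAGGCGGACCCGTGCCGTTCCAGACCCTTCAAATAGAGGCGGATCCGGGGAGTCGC
ID1: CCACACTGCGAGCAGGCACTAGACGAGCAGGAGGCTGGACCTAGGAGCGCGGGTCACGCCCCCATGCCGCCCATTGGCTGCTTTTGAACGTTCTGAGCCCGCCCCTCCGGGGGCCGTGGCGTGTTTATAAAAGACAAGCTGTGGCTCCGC
GAS6: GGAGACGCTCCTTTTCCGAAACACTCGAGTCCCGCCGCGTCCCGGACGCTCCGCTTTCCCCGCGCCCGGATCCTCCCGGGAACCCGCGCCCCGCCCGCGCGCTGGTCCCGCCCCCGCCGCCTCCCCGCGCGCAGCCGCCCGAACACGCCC
KIF17: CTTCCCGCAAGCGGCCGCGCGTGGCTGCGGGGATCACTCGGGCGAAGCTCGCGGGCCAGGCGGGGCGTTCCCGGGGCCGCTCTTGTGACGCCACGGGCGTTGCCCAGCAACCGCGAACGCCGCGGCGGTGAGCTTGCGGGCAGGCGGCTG
POLD1: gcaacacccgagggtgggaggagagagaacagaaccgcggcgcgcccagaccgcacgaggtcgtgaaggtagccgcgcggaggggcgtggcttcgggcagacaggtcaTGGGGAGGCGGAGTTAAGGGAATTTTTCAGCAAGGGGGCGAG
All 150 bases were newly covered at *CDK9*, *ID1*, *GAS6* and *KIF17*, 115 at *EGR1* and the last 42 at *POLD1*. Their GC content ran from 63.3% at *EGR1* to 78.7% at *CDK9* and *GAS6*, and they held between 12 CpG dinucleotides at *ID1* and 28 at *GAS6*. The GC box GGGCGG, searched on both strands, occurred 2 times at *CDK9*, 2 times at *ID1* and 3 times at *GAS6*. It was present in 43.4% of the corresponding 150-base windows of all 19970 protein-coding genes. TATAAA, also searched on both strands, occurred 1 time at *CDK9* and 2 times, overlapping each other, at *ID1*, against 6.71% of all windows with a match. Newly covered starts were not all of this kind. The 150 bases upstream of *NFKBIE*, also newly covered throughout, had a GC content of 38% with 2 CpG dinucleotides, and those of *TNFAIP2* 64% with 3.

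Counted over all promoter pairs, widening was more frequent than narrowing, but the order changed with the width without UV. The 560 members were 9.16% of the 6112 promoter pairs (95% interval 8.45 to 9.91%), and 84 pairs, or 1.37% (1.10 to 1.70%), were at most 0.5 times as wide after UV. Away from promoters the order was the other way round when all widths were counted together. Of 28908 pairs within genes, 4.65% widened and 6.65% narrowed to this extent, and of 7985 pairs between genes, 3.96% widened and 7.98% narrowed. The median ratio of UV width to width without UV was 1.16 at promoters, 0.987 within genes and 0.963 between genes. More promoter pairs widened than narrowed on each of the 23 chromosomes, with a widened share from 6.07% on chromosome 6 to 18.0% on chromosome 22. No UV interval was narrower than 294 bp, so an interval that was narrow without UV could not shrink to 0.5 times its width. By quintile of width without UV (over all pairs), 282, 150 and 90 promoter pairs widened in quintiles 1, 2 and 3, and none narrowed. In quintile 4, 35 widened and 28 narrowed, and in quintile 5, the widest, 3 widened and 56 narrowed. Away from promoters the order changed with width too. There 949, 412 and 210 pairs widened in quintiles 1, 2 and 3, and 0, 0 and 2 narrowed. In quintile 4 of these pairs, 72 widened and 753 narrowed, and in quintile 5, 17 widened and 1803 narrowed. The intervals given with shares are exact Clopper-Pearson 95% intervals and cover counting error only. With the 5′ ends of all transcripts of protein-coding genes in place of the gene 5′ end, 935 intervals widened and 283 narrowed.

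**Figure D1:**
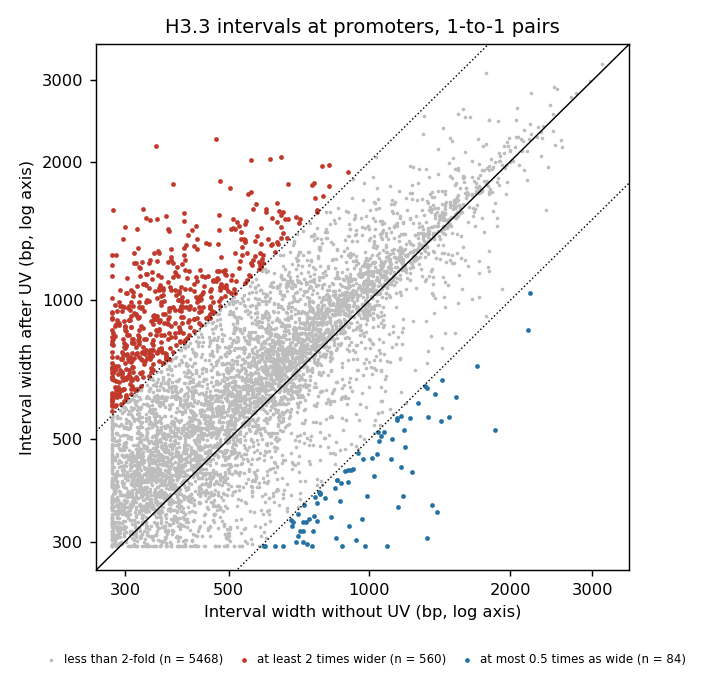
Width of each promoter H3.3 interval without UV (x axis, bp, log scale) and after UV (y axis, bp, log scale) for the 6112 pairs, with a solid line at equal width and dotted lines at 2 times and 0.5 times. The 560 members (red) start between 281 and 898 bp, at the narrow end of the pairs, and the 84 narrowed pairs (blue) start at 596 bp or more.

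The members were narrow before UV and of ordinary promoter width or more afterwards. Without UV their median width was 354 bp (range 281 to 898 bp), and after UV it was 949 bp (577 to 2239 bp). The other 5552 promoter pairs had medians of 553 and 623 bp. The ratio of the widths had a median of 2.45 in the members and reached 6.21, and the difference had a median of 572.5 bp and reached 1819 bp. The narrowest interval that either list holds was 281 bp without UV and 294 bp after UV, so a member could start no narrower than this. Of the promoter pairs in the narrowest quintile without UV (over all pairs), 22.2% widened at least 2 times, against 0.236% in the widest quintile. Away from promoters these shares were 12.9% and 0.232%. Close to the chosen ratio, *WDR90*, *ABCF3* and *SEPTIN1* were just inside at 2.005, 2.01 and 2.011, and *DTD1*, *EXOSC4* and *DOCK10* were just outside at 1.998, 1.998 and 1.997.

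Most members kept the old interval whole and gained flanks. In 464 of the 560 members (82.9%) the UV interval contained the whole interval without UV, against 49.2% of the other promoter pairs. The remaining 96 members lost up to 261 bp on one side, 48 on the upstream and 48 on the downstream side. Counted over all intervals within 2 kb of the gene 5′ end, so that separate neighbouring intervals count too, a median of 472 bp was covered without UV and 1204 bp after UV in the members. In the other promoter pairs these medians were 881 and 1032 bp. More bases were covered after UV in 552 of the 560 members. The rule asks for a UV interval at least 2 times as wide as the interval it overlaps. This favours both containment and more covered bases, so these values describe the choice of members.

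Taken over all members, the added bases lay upstream of the old interval somewhat more often than downstream. Upstream and downstream are meant here in the direction of transcription of the nearest protein-coding gene, and a member extended mainly to one side if that side held at least 2 in 3 of its added bases. By this measure 280 members (50%, 45.8 to 54.2%) extended mainly upstream, 212 (37.9%, 33.8 to 42.0%) mainly downstream and 68 (12.1%, 9.55 to 15.1%) on both sides. Of all 349454 added bases, 186460 were upstream and 162994 (46.6%) downstream. The median member had 33.9% of its added bases downstream (26.1 to 48.6%). In the other promoter pairs that gained bases on either side this median was 48.0% (45.5 to 50%), and 37.8% of all the other pairs gained mainly upstream and 35.6% mainly downstream.

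The side differed with where the interval had lain before UV, and the commonest direction was toward the start site. Without UV, 328 members lay wholly downstream of the gene 5′ end, 128 wholly upstream and 104 over it. Of those downstream, 66.5% (61.1 to 71.6%) extended mainly upstream, and of those upstream, 61.7% (52.7 to 70.2%) extended mainly downstream. Counted jointly as intervals beside the start site, 297 of 456 (65.1%, 60.6 to 69.5%) grew mainly toward it and 109 (23.9%, 20.1 to 28.1%) mainly away from it. Members that already lay over the start site extended mainly downstream, into the gene, in 60.6% (50.5 to 70.0%) and mainly upstream in 22.1% (14.6 to 31.3%). A UV interval had to lie within 1 kb of the start to be a member, which favours growth toward it. Among the 417 members beside the start whose interval without UV was itself within 1 kb, 63.5% grew toward it and 25.4% away. Among promoter pairs with less than a 2-fold change in width, 43.8% of the 3458 intervals beside the start gained mainly toward it and 29.7% mainly away. Intervals beside the start also widened more often. Of all promoter pairs, 12.4% (11.2 to 13.7%) of those downstream of the start without UV were members, 9.64% (8.10 to 11.3%) of those upstream, and 4.86% (3.99 to 5.86%) of those over it. The share of members also fell with width without UV, from 22.2% in the narrowest quintile to 0.236% in the widest. A wider interval is more likely to lie over the start. The 3 positions were not matched for width, and its part in these shares was not tested.

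**Figure D2:**
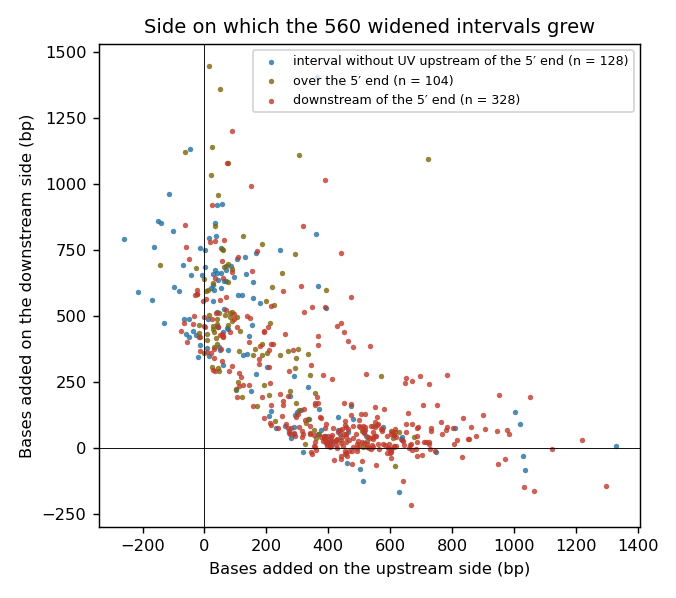
Bases added on the upstream side (x axis, bp) and on the downstream side (y axis, bp) of each of the 560 members, coloured by where the interval without UV lay relative to the gene 5′ end, with negative values for bases lost on that side. Most of the 328 intervals that lay downstream of the start (red) sit along the x axis, and most of the 128 that lay upstream (blue) and the 104 that lay over it (brown) sit along the y axis.

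The start site itself moved from mostly outside to mostly inside the interval. The gene 5′ end was covered in 104 members (18.6%) without UV and in 353 (63.0%) after UV. It was newly covered in 252 members (45.0%, 40.8 to 49.2%) and no longer covered in 3. In the other promoter pairs 9.92% were newly covered and 1.71% no longer covered. A wider interval covers more positions of any kind, so these shares describe the members and were not tested. The rise was not equal along the promoter. At 200 bp upstream of the start, coverage went from 11.96% to 48.2% of the members, and at 300 bp downstream from 37.9% to 72.0%. Coverage was highest 310 bp downstream of the start without UV (38.4%) and 270 bp downstream after UV (72.3%). At 1000 bp upstream it went from 3.93% to 11.1%. In pairs with less than a 2-fold change, coverage at the start was 36.8% without UV and 45.3% after UV.

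**Figure D3:**
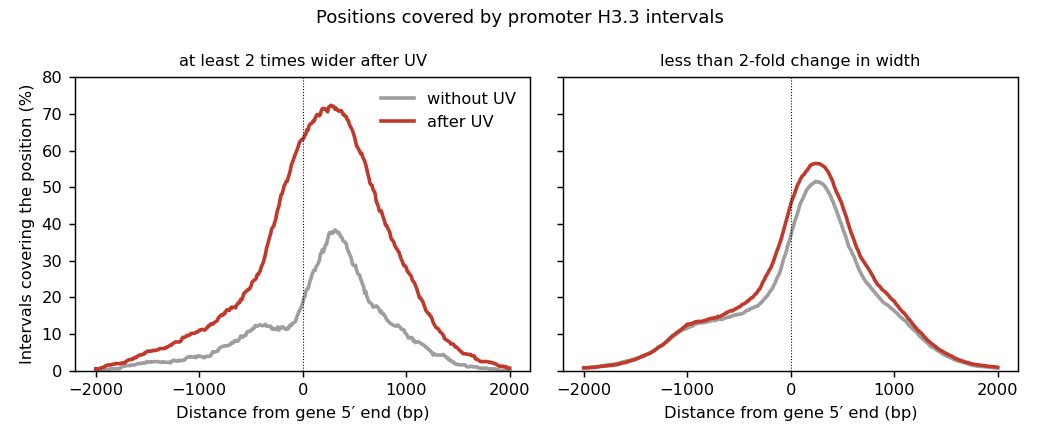
Share of H3.3 intervals (y axis, %) that cover each position relative to the gene 5′ end (x axis, bp, positive in the direction of transcription), without UV (grey) and after UV (red), for the 560 members (left) and the 5468 promoter pairs with less than a 2-fold change in width (right). In the members coverage at the start site goes from 18.6% to 63.0%, and in the other panel from 36.8% to 45.3%.

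Most members carried an additional summit after UV, that is, a further local maximum of enrichment reported by the peak caller. Without UV 550 members had 1 summit and 10 had 2. After UV 204 had 1, 297 had 2, 56 had 3 and 3 had 4. The number rose in 352 members (62.9%, 58.7 to 66.9%), against 7.37% of the other promoter pairs, and fell in 1. Neighbouring summits were a median of 481 bp apart at their closest in the 356 members with several after UV. Of the 978 summits after UV, 433 (44.3%) lay outside the interval without UV. The strongest summit nevertheless stayed near its old place, with a median displacement of 33.5 bp, and in 87 members (15.5%) it lay outside the old interval. Ranked by −log10 q within their own library, the members stood at a median percentile of 67.7 without UV (66.0 to 71.5) and 84.8 after UV (83.7 to 86.2). The other promoter pairs stood at 82.5 and 87.2.

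The largest ratio belonged to *MTCL1*, which encodes a microtubule crosslinking protein. Its interval was 349 bp wide without UV, from position −83 to position 265 relative to the start, and 2168 bp wide after UV (chr18:8704749-8706916), with 724 bp added upstream, 1095 bp downstream and 4 summits in place of 1. Next came *HNRNPH3*, which encodes a splicing-related RNA-binding protein, with 283 bp without UV and 1571 bp after UV (chr10:68331295-68332865). Relative to *HNRNPH3* it grew into the gene, with 1200 bp added downstream and 88 bp upstream. The 5′ end of *PBLD* also lay within 1 kb of this interval. At *GAS6* the interval went from 328 to 1578 bp (chr13:113862760-113864337), nearly all of it upstream, so that an interval that had begun 959 bp inside the gene reached position −261, upstream of its start. *CERK*, which encodes ceramide kinase, went from 300 to 1442 bp (chr22:46738349-46739790) and grew mainly upstream, away from the gene. Its UV interval ended at position −97, before the start.

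The other intervals with a ratio above 4.5 were those of *TACC3*, a spindle protein, *NCKAP5L*, a microtubule-binding protein, *KIF17* and *KCNK4*, a potassium channel. *TACC3* went from 470 to 2239 bp (chr4:1711689-1713927), the widest member after UV, and moved its downstream edge across the start, from position −336 to position 1069. The 5′ end of *SLBP* also lay within 1 kb of this interval, and these positions refer to the start of *TACC3*. *NCKAP5L* went from 380 to 1789 bp with 96.4% of its added bases downstream. *KIF17* went from 297 to 1359 bp and *KCNK4* from 333 to 1513 bp, and both reached the start from inside the gene. Thus 6 of these 8 intervals covered the start site of the gene named here after UV and 2 had done so before.

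Among the members with the most bases added downstream, *SAMD1*, which encodes a protein that binds unmethylated CpG-rich DNA, went from 559 to 2018 bp (chr19:14089575-14091592) with 13 bp added upstream and 99.1% of its added bases downstream. The members with the most bases added upstream were *BAD*, *TRAF2*, *GAS6* and *VDAC1*. *BAD*, which encodes a pro-apoptotic protein of the BCL2 family, gained 1329 bp upstream, and its UV interval, from position −2210 to position −397, did not reach the gene. *TRAF2*, an adaptor of tumour necrosis factor receptors, gained 1298 bp upstream from an interval that had begun 1039 bp inside the gene, and lost bases at its downstream edge. *VDAC1*, the channel of the outer mitochondrial membrane, gained 1123 bp upstream and went from 669 to 1788 bp (chr5:134004003-134005790). In *TRAF2*, *GAS6* and *VDAC1* the start site was covered only after UV.

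The members with the highest −log10 q after UV were already strong without it. *CHD6*, which encodes a chromatin remodeller, stood at percentile 99.2 without UV and 99.9 after UV and went from 383 to 954 bp, 84.2% of the added bases downstream. *MAP4K5*, which encodes a kinase, went from 452 to 1130 bp with 94.99% of the added bases downstream, and kept 1 summit. *TBX3*, which encodes a T-box transcription factor of the lung mesenchyme, went from 525 to 1448 bp. *PTBP1*, which encodes a splicing repressor, went from 476 to 1419 bp with 97.5% of the added bases downstream. *KIAA1522* and *FBXL19* completed these 6, at 525 to 1179 bp and 492 to 1166 bp. All 6 stood above percentile 97 in both libraries.

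**Figure D4:**
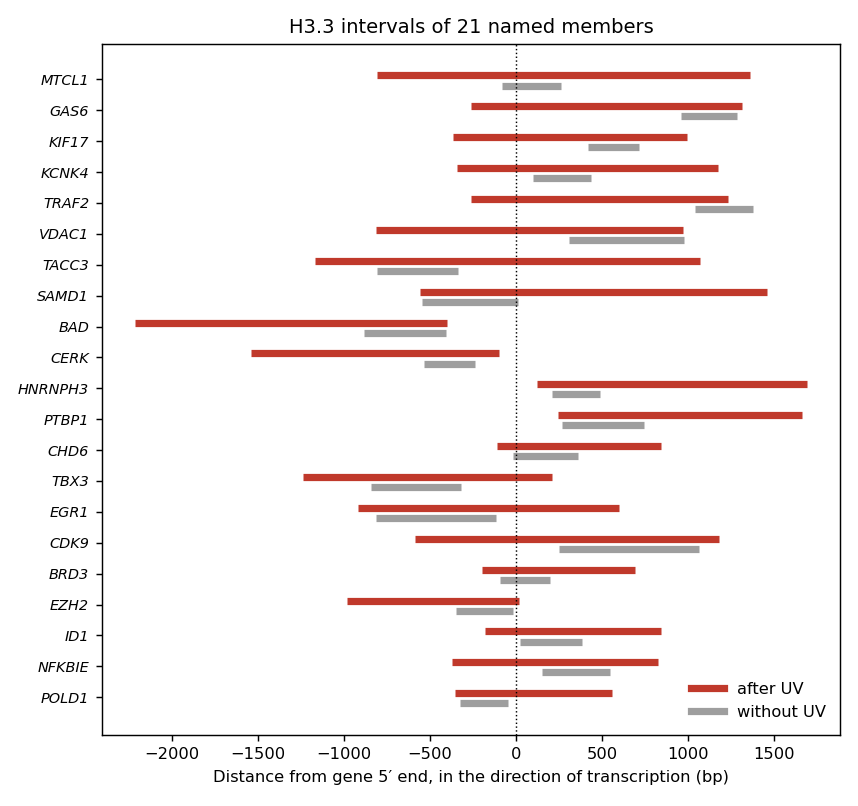
H3.3 intervals of 21 named members without UV (grey) and after UV (red), drawn to scale against the distance from the gene 5′ end (x axis, bp, positive in the direction of transcription, dotted line at the 5′ end). *GAS6*, *KIF17* and *TRAF2* reach the start from inside the gene, *EGR1* and *POLD1* reach it from upstream, and *BAD* and *CERK* end before it.

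By function, members were spread over many groups of genes and no group was tested. A protein-coding gene counts here if a member lay within 1 kb of its 5′ end, so 1 interval between neighbouring genes can count for both, and 642 of 6067 protein-coding genes with a 1-to-1 pair counted (10.6%). Of the same 6067 genes, 92 had a pair at most 0.5 times as wide after UV. Genes for transcription elongation with a member included *CDK9* and *NELFA*. At *CDK9* the interval went from 819 to 1769 bp (chr9:127785092-127786860) with 836 bp added upstream, across the start. At *NELFA*, a subunit of the pausing factor NELF that lies within 1 kb of the same interval as *C4orf48*, it went from 398 to 892 bp. *SUPT5H*, which encodes a subunit of DSIF, narrowed.

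Genes of DNA replication and repair gave 4 of 21 and 2 of 15, beside 10.6% of all genes, with *POLD1* in both lists. *POLD1* went from 281 to 912 bp and *CHEK1*, which encodes the checkpoint kinase of stalled replication, from 498 to 1046 bp. *RRM2*, the small subunit of ribonucleotide reductase, went from 362 to 1052 bp, with 91.0% of its added bases upstream, and *MCM6*, a subunit of the replicative helicase, from 363 to 843 bp. In the nucleotide excision repair list, the second gene was *ERCC8*, which encodes the Cockayne syndrome protein CSA and shares a promoter interval with *NDUFAF2* that went from 341 to 901 bp. *ERCC2* and *ERCC5* of this list narrowed. Of 14 p53 targets, *PHLDA3* and *TNFRSF10B*, a death receptor, widened and *BBC3* and *TRIAP1* narrowed. Over all genes with a pair, 92 of 6067 narrowed, and none of these counts was tested.

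Of 10 NF-κB feedback genes and cytokines, 3 had a member. *NFKBIE*, which encodes an inhibitor of NF-κB, went from 397 to 1197 bp, *TNFAIP2* from 459 to 1015 bp and *BCL3* from 380 to 775 bp. Of 15 TGF-β and YAP targets, *ID1* (361 to 1027 bp), *LTBP1* (532 to 1359 bp), whose product holds latent TGF-β in the matrix, and *AXL* (383 to 892 bp) had one. Among immediate early genes, *EGR1* was the 1 of 15 in its list (6.67%), at 695 to 1515 bp (chr5:138464565-138466079) with 716 bp added downstream across the start, and *MAFG* the 1 of 9 AP-1 and ATF factors (11.1%), beside 10.6% of all genes. None of 9 dual specificity phosphatases, 11 heat shock genes and 7 HOX genes had a member.

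Chromatin genes with a member were *EZH2*, the methyltransferase of Polycomb complex PRC2, and *BRD3*, 2 of 29. *EZH2* went from 334 to 1003 bp, 634 bp of it added upstream, and its UV interval just crossed the start by 19 bp. *BRD3* went from 287 to 888 bp, mainly downstream. *HIRA*, the H3.3 chaperone, was the 1 of 6 genes for H3.3 and its chaperones, through an interval shared with *C22orf39* that went from 394 to 818 bp. The large families gave 2 of 38 ribosomal protein genes (*RPL12*, *RPL35*, 5.26%) and 2 of 38 replication-dependent histone genes (*H2AC25*, *H2BC26*, 5.26%). Both histone genes were counted through the same interval. Zinc finger genes of chromosome 19 gave 2 of 35 (*ZNF333*, *ZNF544*, 5.71%). The share of all genes was 10.6%, and with so few members the differences were not tested. In the same lists 2 ribosomal protein genes (*RPS16*, *RPS27L*), 1 histone gene (*H4C5*) and 1 zinc finger gene (*ZNF254*) narrowed. The remaining lists gave 2 of 8 for the proteasome and ubiquitin (*PSMD13*, *PSMD14*, while *PSMB2* narrowed), 2 of 18 for splicing (*HNRNPL*, *SRSF7*), 1 of 18 for the extracellular matrix (*TIMP2*) and 1 of 10 for transcription factors of the lung mesenchyme (*TBX3*), and no protocadherin gene had a pair.

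Pairs of high GC content widened more often and narrowed less often than pairs of low GC content. The members themselves had a median GC content close to that of the other promoter pairs. The median GC content of the UV interval was 69.4% in the members (68.8 to 70.2%), 68.5% in the other promoter pairs (68.3 to 68.7%) and 53.4% in the 84 narrowed pairs (52.0 to 55.8%). All pairs, at promoters and elsewhere, were ranked by the GC content of the span that either interval covered and divided into 5 quintiles. At promoters the widened share was 4.598% in the lowest quintile (1.27 to 11.4%, 4 of 87 pairs) and 10.3% in the highest (9.38 to 11.2%), and the narrowed share 6.90% and 0.391%. Away from promoters the widened share was 2.82% and 8.999% (8.16 to 9.90%), and the narrowed share 12.2% and 0.470%. At the highest GC content the intervals of both widened shares overlapped, and 4345 of the 6112 promoter pairs were in that quintile, with 4256 pairs from elsewhere. The part of GC content in the widening at promoters was not tested.

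**Figure D5:**
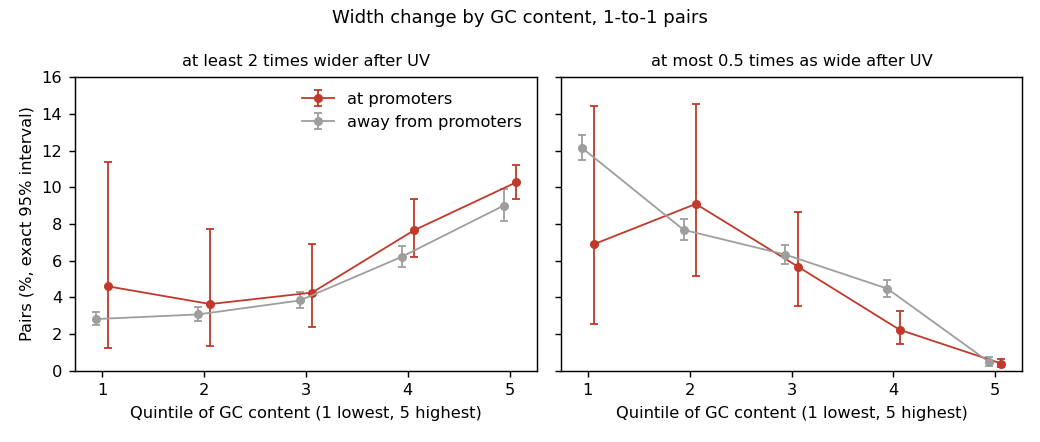
Share of 1-to-1 pairs (y axis, %, with exact 95% intervals as bars) that were at least 2 times wider after UV (left) and at most 0.5 times as wide (right), by quintile of GC content over all pairs (x axis), at promoters (red) and away from them (grey). In the highest quintile 10.3% of the promoter pairs and 8.999% of the others widened, and 0.391% and 0.470% narrowed.

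The added bases were slightly poorer in GC than the bases kept. Their median GC content was 68.0% (67.3 to 68.9%) against 71.0% (70.1 to 71.4%), with a median of 9.07 and 10.4 CpG dinucleotides per 100 bases, and they were richer in GC than the kept bases in 186 of the 560 members (33.2%). By annotation, 35.6% of the added bases lay in introns, 22.7% in untranslated and 9.93% in coding parts of exons, and 22.6% between genes. Of the kept bases 35.3% were intronic, 24.3% untranslated and 15.3% coding, and 17.1% lay between genes.

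The start windows of the members held GGGCGG more often and CCAAT less often than those of the other promoter pairs, with 95% intervals that did not overlap, narrowly so for GGGCGG. In the 300 bases centred on the 5′ end, 84.8% of 558 members' genes (81.5 to 87.6%) were rich in CpG, defined as a GC content of at least 50% and a ratio of observed to expected CpG of at least 0.6, against 81.1% (79.98 to 82.2%) of 4910 genes of the other pairs and 59.3% of all 19933 protein-coding genes with a window. GGGCGG on either strand was present in 77.4% (73.7 to 80.8%) of the members' windows, 72.4% (71.1 to 73.7%) of the others and 54.3% of all. CCAAT was present in 25.4% (21.9 to 29.3%) of the members' windows and 31.3% (30.0 to 32.6%) of the others. The AP-1 motif TGANTCA occurred in 3.94% and 4.52%, TATAAA in 5.38% and 4.71%, and CCGGAA, the core of ETS sites, in 22.04% and 24.1%. Also searched were the CRE TGACGTCA (2.15% and 2.28%), the NRF1 core GCATGCGC (4.30% and 4.03%) and the E box CACGTG (8.065% and 8.74%). The YY1 core AAGATGGC occurred in 2.87% and 4.34%, and GAANNTTC, from heat shock elements, in 2.51% and 4.07%. For all motifs but GGGCGG and CCAAT the 95% intervals overlapped, and no motif was tested. Neighbouring genes were about as frequent near members as near the other pairs. A protein-coding 5′ end on the opposite strand lay within 1 kb of the start in 10.7% of the members and 10.7% of the other pairs, and the 5′ end of a long non-coding RNA lay within 1 kb of the interval in 23.4% of the members and 23.1% of the other pairs. The nearest genes of the members had a median length of 38907 bp (33141 to 45926 bp) and those of the other pairs 31671 bp (30054 to 33266 bp). The 560 members had 558 nearest genes, with 2 members each at *DLL4*, a Notch ligand, and *RNF223*.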

How the data were processed

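H3.3 ChIP-seq intervals were compared between 2 libraries, 1 without UV and 1 collected 3 h after UV-C. Reads had been trimmed (Trimmomatic), mapped to hg38 (BWA 0.7.12), cleared of duplicates (Biobambam2) and passed to MACS, of which the submitters' processing notes list version 1.4.2. That version does not write lists with several summits per interval, as these are, so the version, control and threshold behind the H3.3 intervals and summits are not given in the sources used here. The authors deposited 1 peak list per library with a score, a fold enrichment (a linear ratio), and −log10 p and −log10 q values (lowest −log10 q 1.30 in both, 102949 and 89740 rows). A deeper library can yield wider intervals, and the depth is unknown. Input libraries were not analysed here. No interval ran past a chromosome end of hg38. Rows with the same interval were collapsed, intervals were paired by an overlap of at least 1 bp, and genes came from GENCODE 44. Pysam 0.24.0, samtools 1.23.1, scipy 1.17.1, pandas 2.3.3 and numpy 2.4.6 were used in Python 3.11.15, and procedures were tested on simulated lists. Medians have 95% intervals from order statistics. Named genes were the 8 largest ratios, the 8 with most added bases, the 6 highest −log10 q, the 4 with most bases added on each side, 3 just inside and 3 just outside the ratio of 2, and members at genes of the lists; several with no further values are not printed, and 1 gene's result is not reported here. The members and gene lists were chosen with earlier results of these data known.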

Additional observations from a re-analysis of the deposited data

How the results depend on the processing

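No paired analysis was possible because each condition has 1 library, and no library could be left out. In all 12 alternatives that redefine the pairs, more promoter intervals widened than narrowed and the widened share was higher at promoters than away from them (4.50% away). None of these alternatives matched the pairs by width without UV. In all 15 alternatives that bear on the side, mainly upstream exceeded mainly downstream (by 3.60 to 16.2 percentage points, 12.1 as reported) and growth toward the start exceeded growth away from it (by 32.3 to 49.1, 41.2 as reported). The following values moved, and where the alternative's own construction does not show the cause, it was not tested. With a ratio of at least 1.5, 1372 intervals widened and 246 narrowed, 12.5% widened away from promoters, 33.5% had a newly covered start and 38.5% more summits. With a ratio of at least 3 these were 111, 9, 0.661%, 54.1% and 86.5%, and the median downstream part was 49.4%. With the 5′ ends of all transcripts, 935 widened, 283 narrowed, 4.07% widened away and the median GC content was 67.4%. With a 500 bp window 48 narrowed and 50.4% had a newly covered start. With a 2 kb window these were 155 and 38.8%, and the GC content was 68.8%. Widening away from promoters was 4.73% once intervals with a −log10 q under 3 were removed, 5.07% once those under 5 were, 4.97% when 50% of the shorter interval had to be shared and 5.11% with intervals less than 200 bp apart joined. Without intervals of a −log10 q under 5, the median downstream part was 26.0% and 72.3% had more summits, as did 69.7% with intervals joined. With the side set by more than 50% of the added bases, 45.4% extended mainly downstream and 69.5% grew toward the start, against 65.1% as reported. This last share was 57.8% with a ratio of 1.5, 60.2% with 3 and 69.7% without −log10 q under 5. The widened share of promoter pairs, 9.16% as reported, was 22.45% with a ratio of 1.5 and 1.82% with 3. It was 10.2% with a 500 bp window, 8.34% with 2 kb, 8.17% with all transcripts and 10.7% with intervals joined. The narrowed share ran from 0.147 to 4.025%. Orienting each interval by the gene nearest to it without UV, and assigning promoters by the interval without UV, were added after the data were seen and moved none of these results; the second gave 522 widened and 102 narrowed. Unknown depth limits every width.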

Other observations

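Intervals that merged are not among the members, since the rule asks for a 1-to-1 partner. At promoters, 632 UV intervals overlapped 2 or more intervals without UV, and 226 promoter intervals without UV overlapped 2 or more UV intervals, 2.80 merges per split. Away from promoters the numbers were 2191 and 2370, or 0.925 merges per split. No test was made of either ratio.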
